A study of Rattus norvegicus with 63 samples.

Results

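The livers of 3 male Wistar Hanover rats given methapyrilene HCl (MPy) by gavage at 60 mg/kg/d for 7 days were compared with those of 3 vehicle rats given methylcellulose, whose labels carry the same control group number (control set 1) and a duration of 14 days. These 6 animals, chosen by their labels alone, belong to a series of 63 rats in 21 groups of 3, treated with 1 of 15 compounds or with vehicle to profile early responses to liver carcinogens and non-carcinogens. All were assigned to their dose groups at an age of 8 to 10 weeks. The study's methods state that only animals with histopathological change in the liver were taken from the treated groups, so the MPy animals are a selected sample of their dose group, and the controls are described there as time-matched although the labels of the pair differ by duration. Effects of 7 against 14 days of gavage and effects of MPy cannot be told apart by these labels. The study gives the vehicle of MPy as methylcellulose in one place and as carboxymethyl cellulose in another. Its controls are described with methylcellulose, and a part of the vehicle was not tested. Liver lysates were printed on reverse-phase protein arrays, on which each array is probed with 1 antibody, and the relative fluorescence intensity (RFI) of 158 analytes was deposited for each animal, 104 for total proteins and 54 for phosphorylated, acetylated or methylated forms.

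Methapyrilene is an antihistamine that was once used as a sleep aid and was withdrawn after it was found to cause liver tumours in rats. It injures rat hepatocytes around the portal tracts after oxidation by cytochromes P450, and it is usually classed as a non-genotoxic carcinogen. The cytochromes P450 are membrane-bound oxidases of the hepatocyte that receive electrons from POR, the P450 reductase. BAX is a pore-forming protein of the mitochondrial death pathway, and JUN is a transcription factor activated by stress kinases. MAPK3 (ERK1) is an extracellular signal-regulated kinase that carries growth factor signals to transcription factors such as ELK1, while phosphorylated ribosomal protein S6 (RPS6) reads out growth signalling through MTOR.

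RFI is on a linear scale and was compared within an analyte only, since antibodies differ in brightness. The analytes carry human gene symbols, and a trailing number separates antibodies with the same symbol. Rat liver holds its own members of the CYP families, and which of them each antibody detects is not given in the sources used here. Fold changes are differences of mean log2 RFI, tested with limma in a fit of all 21 groups and adjusted by Benjamini-Hochberg over the 158 analytes, with calls at an adjusted p below 0.05. Besides control set 1, the mean of the 4 methylcellulose control sets (12 animals, set 1 included) served as a second reference, so both comparisons share the MPy animals and the set 1 animals. All 12 are labelled 14 days, so this reference differs from MPy by duration in the same way.

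Against control set 1 alone, 0 of 158 analytes were called by limma (0% called). 13 analytes had an unadjusted p below 0.05 (8.23% of those tested), 2 higher (1.27%) and 11 lower (6.96%). The higher ones were BAX and JUN. The lower ones were CYP3A4_2, CYP2C8, CYP1A2_1, ELK1, phosphorylated MAPK3, phosphorylated RPS6, PRKAA1, the analyte listed as serine 10 phosphorylated CDKN1B, CASK, CDH2 and EIF2AK3. With mean-variance trend and robust shrinkage limma also called 0. Groups of 3 against 3 did not overlap in 33 analytes, of which 3 were higher in MPy (1.90%) and 30 lower (19.0%). The median half-width of the 95% interval of a log2 fold change was 0.434, from 0.253 to 2.91.

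Against all 12 methylcellulose controls, 7 analytes were called (4.43%) and 25 had an unadjusted p below 0.05 (15.8%). BAX rose, and CYP3A4_2, CYP2C8, ELK1, CASK, MAPK3_P-T202/Y204 and CDKN1B_P-S10 fell. In 10 analytes all 3 MPy animals lay below all 12 controls (6.33%), and in 0 all 3 lay above them (0%). These 10 were CYP3A4_2, CYP2C8, CYP1A2_1, CYP1A1_2, ELK1, CASK, PRKAA1, EIF2AK3, HDAC2 and CDKN1B_P-S10. Control set 1 itself did not depart detectably from the mean of the other 3 methylcellulose sets. By limma, 0 analytes were called (0%) and 0 had an unadjusted p below 0.05 (0%). Opposite differences cancel in such a mean. Mean RFI of RPS6_P-S235/S236 was 6.96 in set 1, and 8.19, 11.1 and 2.01 in sets 2, 5 and 6. 1 control animal, of set 6, stood apart with a median RFI of 0.882, where the 3 animals of set 1 had 0.570 to 0.637. Without it 5 of the 7 calls were kept (BAX, CASK, CYP3A4_2, ELK1 and CDKN1B_P-S10). Without all of set 6, with sets 1, 2 and 5 as reference, only BAX and CDKN1B_P-S10 of the 7 were kept, CYP3A4_2, CYP2C8, CASK, ELK1 and MAPK3_P-T202/Y204 were lost, and RPS6_P-S235/S236 was gained.

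Most analytes were dimmer in MPy. The log2 fold change against set 1 was negative in 127 of 158 analytes with a median of -0.15, and median RFI per animal was 0.496 to 0.561 in MPy. When each animal was centred on its own median analyte, 70 were negative and 88 positive. With an unadjusted p below 0.05, centring left 5 analytes higher (3.16%) and 8 lower (5.06%), and 1 called against set 1 (0.633%), namely BAX. Against the 12 controls centring gave 10 calls (6.33%), 5 of them shared with the uncentred calls. The split then was 5 higher (BAX, JUN, DUSP4, EIF2A and MKI67) and 5 lower (CYP3A4_2, CYP2C8, ELK1, PRKAA1 and CDKN1B_P-S10), in place of 1 higher and 6 lower. The part of overall signal in the lower values was not tested, and centred values are therefore given beside them.

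**Figure D1:**
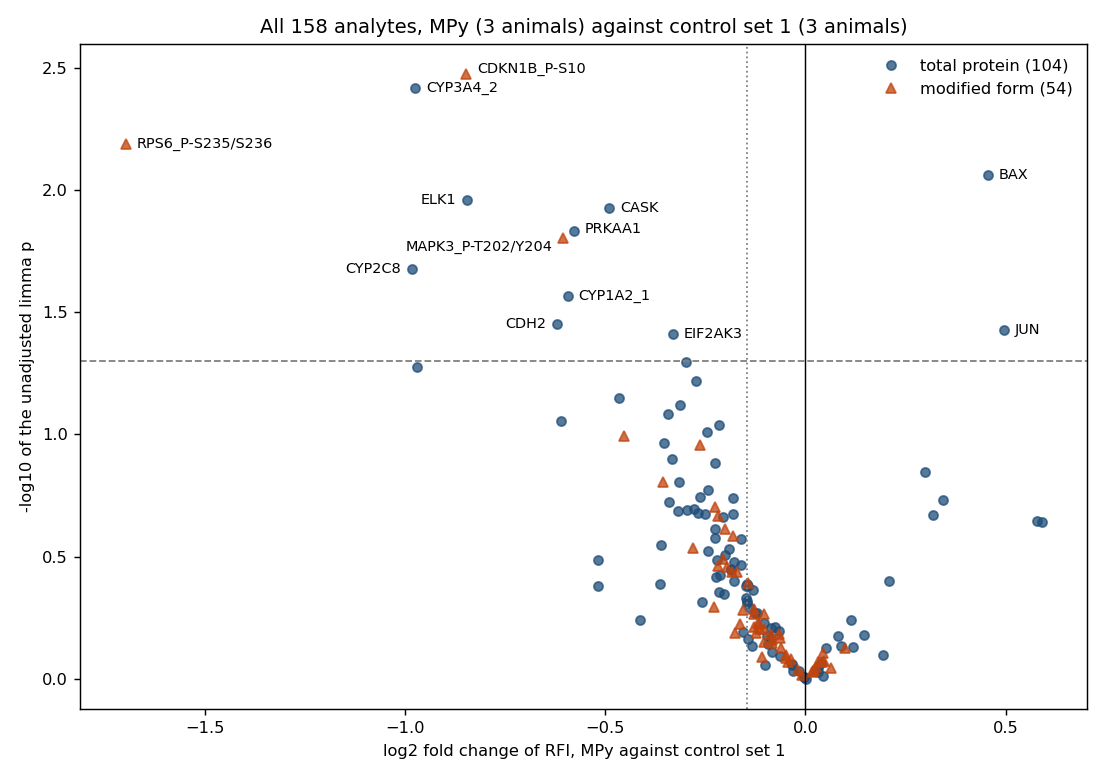
Log2 fold change of RFI (x axis) and -log10 of the unadjusted limma p (y axis) of the 158 analytes, 3 MPy animals against 3 animals of control set 1, with total proteins as circles and modified forms as triangles. The dashed line marks the unadjusted threshold of 0.05 and the dotted line the median fold change of -0.15. Of the 13 named analytes above the dashed line, 11 lie to the left and BAX and JUN to the right.

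The drug-metabolising enzymes held some of the lowest fold changes of MPy livers. Of 16 analytes for 10 enzymes, 13 had a negative and 3 a positive log2 fold change against set 1, where 127 of all 158 analytes were negative. Their median was -0.33, beside -0.15 over all analytes, and -0.16 beside 0.02 after centring. 3 of the 16 were lower at an unadjusted p below 0.05 (11 of all 158), 6 lay below set 1 without overlap (30 of all 158), and 4 lay below all 12 controls (10 of all 158). CYP3A4_2 and CYP2C8 fell against the 12 controls, calls that were lost without set 6, and none of the 16 was called higher. In bulk liver, fewer cells holding an enzyme and less enzyme per cell cannot be told apart.

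CYP3A enzymes are major oxidases of drugs and steroids. CYP3A4_2 had an RFI of 0.599, 0.614 and 0.752 in MPy animals 1 to 3, and of 1.15, 1.39 and 1.31 in control animals 4 to 6. All MPy values were below the lowest of the 12 controls, 0.881. The log2 fold change was -0.97 ± 0.32 (SE) against set 1 (adjusted p = 0.301) and -1.07 ± 0.25 against the 12 controls (adjusted p = 0.00837), or 0.476-fold. Centred, it was -0.81 and -0.89. By single control set the uncentred value ran from -0.65 against set 5 to -1.70 against set 6. The call against the 12 controls was lost without set 6. The companion antibody CYP3A4_1 gave 6.11, 4.23 and 5.32 in MPy against 6.38, 7.20 and 5.83 in set 1. Its groups overlapped, with a log2 fold change of -0.32 ± 0.25. CYP3A5 also overlapped, at -0.15.

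CYP2C8 belongs to the family that makes up much of the constitutive P450 of rat liver. Its RFI was 1.58, 1.34 and 1.36 in MPy and 2.77, 3.26 and 2.46 in set 1. The MPy animals all lay under the lowest of the 12 controls, 2.26. On the log2 scale MPy differed by -0.98 ± 0.41 against set 1 (adjusted p = 0.371) and -1.08 ± 0.33 against the 12 controls (adjusted p = 0.0412). Without the set 6 animal that stood apart, CYP2C8 was no longer called.

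CYP1A2 and CYP1A1 oxidise planar aromatic compounds. CYP1A2_1 read 0.898, 0.862 and 0.798 in MPy and 1.40, 1.26 and 1.20 in set 1, below all 12 controls (lowest 0.997). Its log2 fold change was -0.59 ± 0.26 against set 1 (adjusted p = 0.428) and -0.63 ± 0.21 against the 12 (adjusted p = 0.0530). CYP1A1_2 read 1.78, 1.74 and 1.76 against 2.02, 2.46 and 2.05, again below all 12 controls (lowest 1.96). Its log2 fold change was smaller, -0.30 ± 0.15, and was -0.13 after centring. The other antibody of each pair, CYP1A2_2 at -0.18 and CYP1A1_1 at -0.34, overlapped its controls.

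CYP2B6_3 is one of 3 antibodies to the phenobarbital-inducible CYP2B family. It read 58.4, 74.6 and 27.4 in MPy and 94.1, 136.9 and 69.8 in set 1. MPy animal 2 exceeded control 6, so the groups overlapped, at a log2 fold change of -0.97 ± 0.49 (adjusted p = 0.556). CYP2B6_1 (-0.36) and CYP2B6_2 (-0.25) were negative too, and CYP2B6_2 did not overlap set 1. CYP2D6 read 11.3, 8.77 and 13.5 against 13.8, 14.2 and 13.9, without overlap with set 1, at -0.34 ± 0.19. POR read 14.2, 8.93 and 11.9 against 18.1, 16.0 and 13.7, with overlap, at -0.46 ± 0.25.

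CYP2E1, which oxidises small solvents such as ethanol, and UGT1A1, which conjugates bilirubin, went the other way against set 1 without a call. CYP2E1_2 read 6.71, 11.2 and 5.08 in MPy and 3.51, 7.85 and 4.07 in set 1. The 6 values interleaved, at 0.59 ± 0.48, and CYP2E1_1 stood at 0.19 ± 0.75. UGT1A1 read 6.70, 4.10 and 7.86 against 5.94, 5.22 and 5.43, which put MPy on both sides of the controls at 0.12 ± 0.37. Its direction turned in 5 of 16 alternatives, which ran from -0.43 to 0.39.

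**Figure D2:**
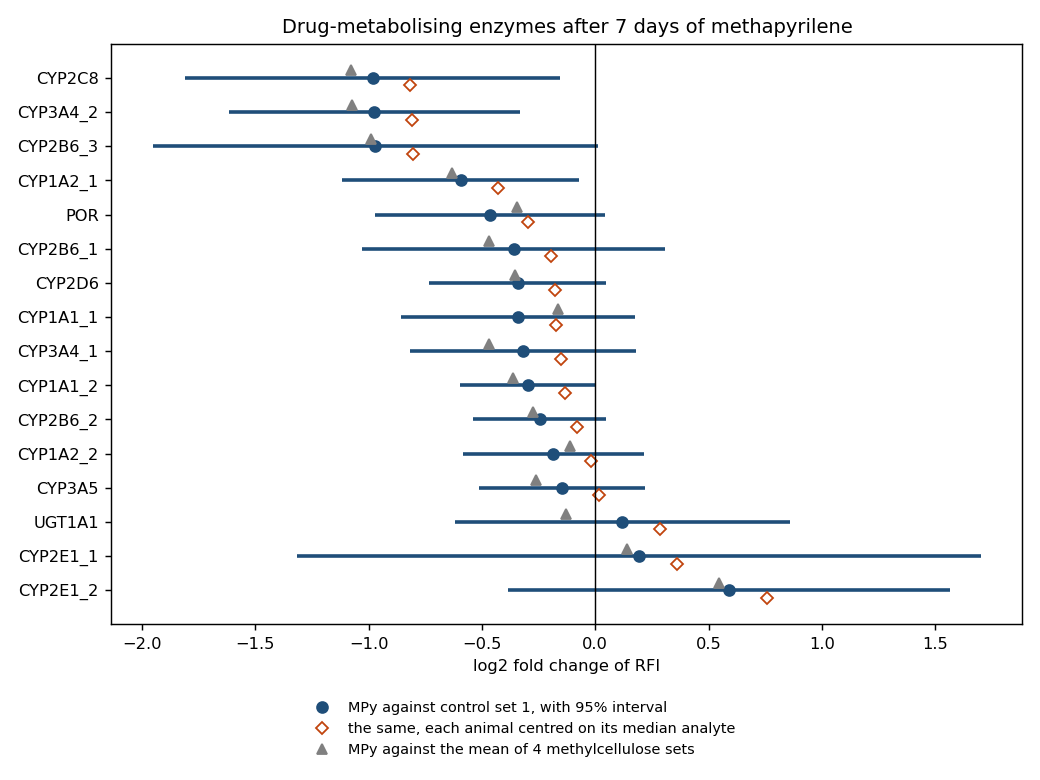
Log2 fold change of RFI (x axis) of the 16 analytes for drug-metabolising enzymes after MPy. Circles with bars give MPy against control set 1 with the 95% interval, diamonds the same after centring each animal on its median analyte, and triangles MPy against the mean of the 4 methylcellulose sets. The interval excludes 0 for CYP2C8, CYP3A4_2 and CYP1A2_1, and 3 analytes have positive values against set 1.

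The hepatocyte factors and nuclear receptors, which set the expression of these enzymes, comprised 5 analytes, all with negative log2 fold changes (median -0.23, centred -0.06) and none at an unadjusted p below 0.05. HNF4A, a master transcription factor of hepatocytes, read 1.75, 1.39 and 1.91 in MPy and 2.20, 2.13 and 1.90 in set 1. Only MPy animal 3 reached the lowest control, and the log2 fold change was -0.31 ± 0.17 (adjusted p = 0.666). RXRA, the common partner of nuclear receptors, read 1.45, 1.22 and 1.40 against 1.65, 1.64 and 1.62, without overlap, at -0.27 ± 0.14. All 8 analytes for hepatocyte markers gave a positive RFI in all 6 animals. Only 2 of all 948 values in these animals were at or below 0, so this is no check of tissue. The 8 analytes had a median log2 fold change of -0.32 (centred -0.15), and 3 of the 8 were lower at an unadjusted p below 0.05, beside 6.96% of all analytes. These 3, CYP3A4_2, CYP2C8 and CYP1A2_1, were already counted among the enzymes. Of the 8 marker analytes 6 were negative, while CYP2E1_1 (0.19) and CYP2E1_2 (0.59) were positive. The second antibodies CYP3A4_1 (-0.32) and CYP1A2_2 (-0.18) overlapped set 1. 0 of the markers listed for biliary cells, for stellate cells and fibroblasts, and for immune and endothelial cells were on the panel, so other cell types could not be followed.

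BAX was the only analyte called higher without centring. Its RFI was 0.849, 0.661 and 0.969 in MPy and 0.546, 0.616 and 0.627 in set 1. The groups did not overlap, although MPy animal 2 lay within the range of the 12 controls, 0.512 to 0.745. The log2 fold change was 0.46 ± 0.17 against set 1 (adjusted p = 0.311, 95% interval 0.12 to 0.79) and 0.47 ± 0.13 against the 12 controls (adjusted p = 0.0282), or 1.38-fold. Centred, it was 0.62 against set 1 (adjusted p = 0.00893) and 0.65 against the 12 (adjusted p = 7.45e-05). In the authors' log2 matrix of the same animals BAX was 0.77 higher than set 1 (adjusted p = 0.00166) and 0.71 higher than the 12 controls, and it was the only call there in either comparison (0.633% each). Per the study's methods, each matrix signal was taken relative to the median of its own control group. The matrix value against the 12 controls thus largely restates the ratio to set 1 and is no second reference.

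Of the remaining apoptosis regulators listed, BCL2L1 and MCL1, which hold BAX in check, stood at -0.24 (95% interval -0.71 to 0.22) and 0.04 (-0.42 to 0.50). AVEN, another inhibitor of cell death, stood at -0.06. BAX was thus the only 1 of the 4 listed with an unadjusted p below 0.05, and their median was -0.01. The panel also held BIK, an apoptosis protein outside the list, at -0.22 (95% interval -0.74 to 0.29).

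JUN read 0.398, 0.350 and 0.270 in MPy and 0.193, 0.247 and 0.280 in set 1. MPy animal 3 fell below control 6, so the groups overlapped. JUN differed on the log2 scale by 0.50 ± 0.23 against set 1 (adjusted p = 0.470) and 0.48 ± 0.18 against the 12 controls (adjusted p = 0.131). After centring it was 0.66 in both, and against the 12 controls JUN was then called (adjusted p = 0.00980). Among the 9 stress kinase analytes, JUN included, 7 were negative and 2 positive with a median of -0.15. MAPK8_P-T183/Y185, the active form of the JUN kinase, read 0.200, 0.229 and 0.205 against 0.229, 0.248 and 0.260. It did not overlap set 1 and stood at -0.22, or -0.05 after centring.

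**Figure D3:**
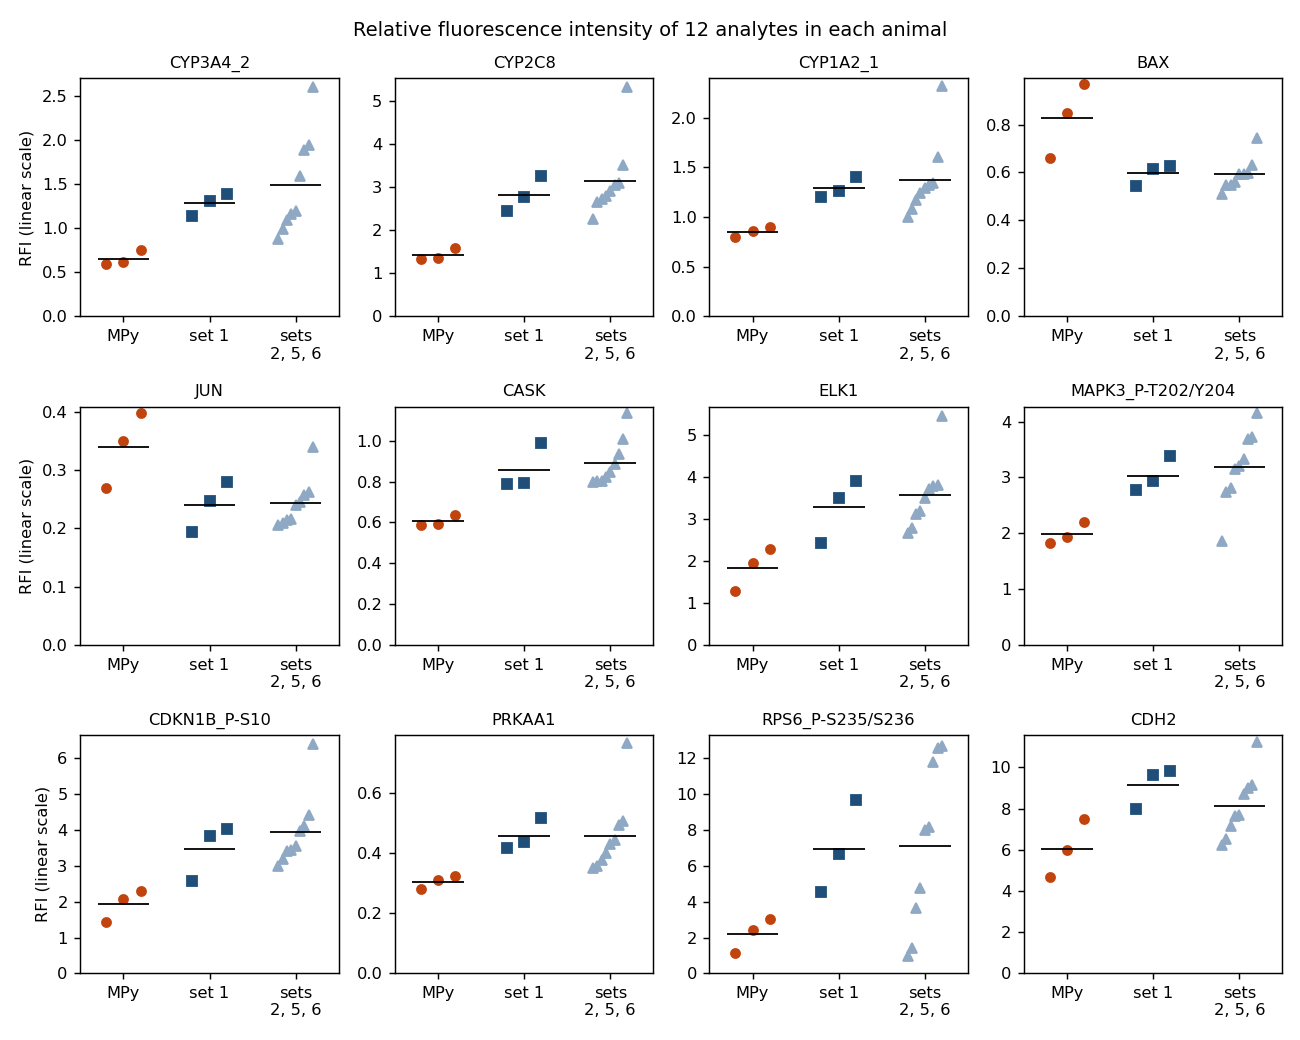
RFI (y axes, linear, starting at 0) of 12 analytes in each of the 3 MPy animals (circles), the 3 animals of control set 1 (squares) and the 9 animals of methylcellulose sets 2, 5 and 6 (triangles), with group means as lines. CYP3A4_2, CYP2C8, CYP1A2_1, CASK, ELK1, CDKN1B_P-S10 and PRKAA1 lie below every control, while BAX and JUN are higher with overlap of the wider control range.

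The ERK cascade comprised 15 analytes, 13 negative and 2 positive, with a median of -0.21 (centred -0.05). Over all 158 analytes 127 were negative. 2 of the 15 were lower at an unadjusted p below 0.05 (11 of all 158), and both fell against the 12 controls (6 of all 158). ELK1, a transcription factor phosphorylated by the ERK kinases, read 1.95, 2.27 and 1.29 in MPy and 3.50, 3.88 and 2.43 in set 1. Every MPy value was below the 12 controls. ELK1 differed on the log2 scale by -0.85 ± 0.32 against set 1 (adjusted p = 0.311) and -0.93 ± 0.25 against the 12 (adjusted p = 0.0282), or 0.524-fold.

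MAPK3_P-T202/Y204, the doubly phosphorylated and active form of ERK1, read 1.83, 2.21 and 1.94 in MPy and 3.37, 2.94 and 2.78 in set 1. The MPy values were all below set 1, but animals 2 and 3 exceeded the lowest of the 12 controls, 1.87. MPy differed by -0.60 ± 0.24 against set 1 (adjusted p = 0.311) and -0.64 ± 0.19 against the 12 (adjusted p = 0.0412). Total MAPK3 stood at 0.03 (95% interval -0.51 to 0.57). Its phosphorylated over total ratio was lower by a log2 value of -0.63 ± 0.39, which did not pass the test. The call of phosphorylated MAPK3 was lost without the set 6 animal that stood apart, and on centring (adjusted p = 0.0753). Upstream, MAP2K1_P-S217/S221 read 0.351, 0.369 and 0.344 against 0.424, 0.469 and 0.344, with overlap, at -0.21. DUSP4, a phosphatase that inactivates ERK, was 1 of the 3 analytes higher without overlap. It read 0.240, 0.247 and 0.301 in MPy and 0.188, 0.235 and 0.209 in set 1, at 0.32 ± 0.25 (adjusted p = 0.768).

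The AKT and MTOR pathway was negative throughout, with 17 of 17 analytes below 0 and a median of -0.23. After centring 12 were negative and 5 positive. RPS6_P-S235/S236 had the largest fold change of all 158 analytes. It read 2.41, 3.05 and 1.16 in MPy and 9.66, 6.69 and 4.52 in set 1. The groups did not overlap, at -1.70 ± 0.59 (adjusted p = 0.311). The 12 controls ran from 0.945 to 12.7, and MPy lay inside that range, at -1.44 ± 0.47 against their mean (adjusted p = 0.0530). It was called at -2.01 with sets 1, 2 and 5 as reference (adjusted p = 0.0201), and also when the dimmest analytes were left out of the test (adjusted p = 0.0488). The value depended on the reference, from -2.42 against set 5 and -1.90 against set 2 to 0.27 against set 6. Total RPS6 read lower as well, RPS6_1 at -0.52 and RPS6_2 at -0.52, both with overlap.

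PRKAA1, the catalytic subunit of the energy sensor AMPK, read 0.323, 0.311 and 0.280 in MPy and 0.437, 0.516 and 0.416 in set 1. All 3 MPy values were below the lowest of the 12 controls, 0.351. This was a log2 fold change of -0.58 ± 0.23 against set 1 (adjusted p = 0.311) and -0.56 ± 0.18 against the 12 (adjusted p = 0.0530). Its activated form PRKAA1_P-T172 read 1.51, 1.62 and 1.41 against 1.72, 2.39 and 1.75, also without overlap, at -0.35 ± 0.25. The phosphorylated over total ratio was 0.22 ± 0.23 on the log2 scale and did not pass the test. RPS6KB1, the kinase that phosphorylates RPS6, read 0.515, 0.438 and 0.548 against 0.585, 0.673 and 0.603, at -0.32. Its active form RPS6KB1_P-T389 overlapped set 1, at -0.17.

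Among 13 cell cycle analytes 1 was lower at an unadjusted p below 0.05, the one listed as CDKN1B_P-S10. CDKN1B (p27) restrains entry into S phase, and phosphorylation at serine 10 affects its stability and export from the nucleus. The listed analyte read 2.08, 2.31 and 1.42 in MPy and 3.83, 4.03 and 2.59 in set 1. It lay below all 12 controls, at -0.85 ± 0.27 against set 1 (adjusted p = 0.301) and -0.97 ± 0.22 against the 12 (adjusted p = 0.00718). The analyte listed as total CDKN1B stood at -0.10 (95% interval -0.50 to 0.29). Of 48 ratios of a modified form over its total protein, limma called 0 (0%), and 1 had an unadjusted p below 0.05 (2.08%), CDKN1B_P-S10 over CDKN1B at -0.74 ± 0.29 (adjusted p = 0.694). The sign of this ratio rests on the names of both analytes and would turn if they were exchanged.

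The identity of that analyte is uncertain. Across the 63 animals its deviations from group means had a Spearman correlation of 0.27 with those of its own name in the authors' log2 matrix, but of 0.84 with those listed there as CDKN1B. In the matrix, CDKN1B_P-S10 was 0.63 higher than set 1 and CDKN1B was lower by a log2 value of -0.63. These correlations describe 63 animals measured on the same arrays and carry no test. Over all analytes the matrix entry of the same name gave the highest correlation in 80 of 158 cases and one of the 5 highest in 111, with a median of 0.524. For CYP3A4_2, CYP2C8, ELK1, phosphorylated MAPK3 and phosphorylated RPS6 the own name ranked highest (0.67, 0.85, 0.79, 0.60 and 0.89). For BAX it was 0.39, for CASK 0.26 and for JUN 0.66, below that of another name.

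None of the other 12 cell cycle analytes had an unadjusted p below 0.05. MKI67 (Ki-67), which is made by dividing cells, read 0.472, 0.483 and 0.330 in MPy and 0.342, 0.337 and 0.320 in set 1. MPy animals 1 and 2 exceeded all 3 controls, and the log2 fold change was 0.34 ± 0.26, or 0.51 after centring. The Aurora kinases AURKA (0.21) and AURKB (-0.13), which act in mitosis, overlapped set 1.

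CASK, a scaffold protein at cell contacts, read 0.592, 0.589 and 0.638 in MPy and 0.794, 0.987 and 0.786 in set 1. All MPy values were below the 12 controls, and the spread in MPy was small. Its log2 fold change was -0.49 ± 0.19 against set 1 (adjusted p = 0.311) and -0.53 ± 0.15 against the 12 (adjusted p = 0.0282), and centring took the latter to -0.35 (adjusted p = 0.0648). CDH2 (N-cadherin), an adhesion protein of hepatocytes, read 7.49, 5.99 and 4.66 against 9.65, 7.99 and 9.84. It did not overlap set 1, at -0.62 ± 0.29 (adjusted p = 0.470), but MPy animal 1 lay inside the range of the 12 controls, which began at 6.25.

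2 proteins of translation control lay on opposite sides of 0, neither called. EIF2AK3 (PERK), a kinase that slows translation when unfolded proteins accumulate, read 0.606, 0.685 and 0.607 in MPy and 0.736, 0.965 and 0.704 in set 1. It lay below all 12 controls at -0.33 ± 0.16 (adjusted p = 0.470), or -0.16 after centring. EIF2A, an initiation factor, read 1.55, 1.30 and 1.25 against 1.12, 1.16 and 1.04. It did not overlap set 1, at 0.30 ± 0.20 (adjusted p = 0.768). The phosphorylated form EIF2A_P-S51 stood at 0.02 (95% interval -0.44 to 0.48). By symbol, the panel held 0 of the proteins listed for folding and oxidative stress. That list names EIF2S1, and whether the EIF2A antibodies detect it is not given in the sources used here.

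The remaining lists had 0 analytes at an unadjusted p below 0.05. The growth factor receptors and partners (11 analytes) had a median of -0.16, led by the hepatocyte growth factor receptor MET, which read 0.480, 0.442 and 0.342 against 0.583, 0.730 and 0.607 and did not overlap set 1 (-0.61 ± 0.35). The JAK-STAT pathway (11 analytes) had a median of -0.04, and its lowest member STAT3_P-S727 stood at -0.45 without overlap. The beta-catenin pathway (9 analytes, median -0.11) and the histones and chromatin enzymes (11 analytes, median -0.10) lay near the median of all analytes. NF-kappa-B (2 analytes) had a median of 0.01. GLUL (glutamine synthetase), a beta-catenin target of hepatocytes around the central vein, read 1.40, 0.574 and 0.497 in MPy and 1.50, 0.792 and 0.793 in set 1. The groups overlapped, with a wide 95% interval of -1.90 to 1.07.

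**Figure D4:**
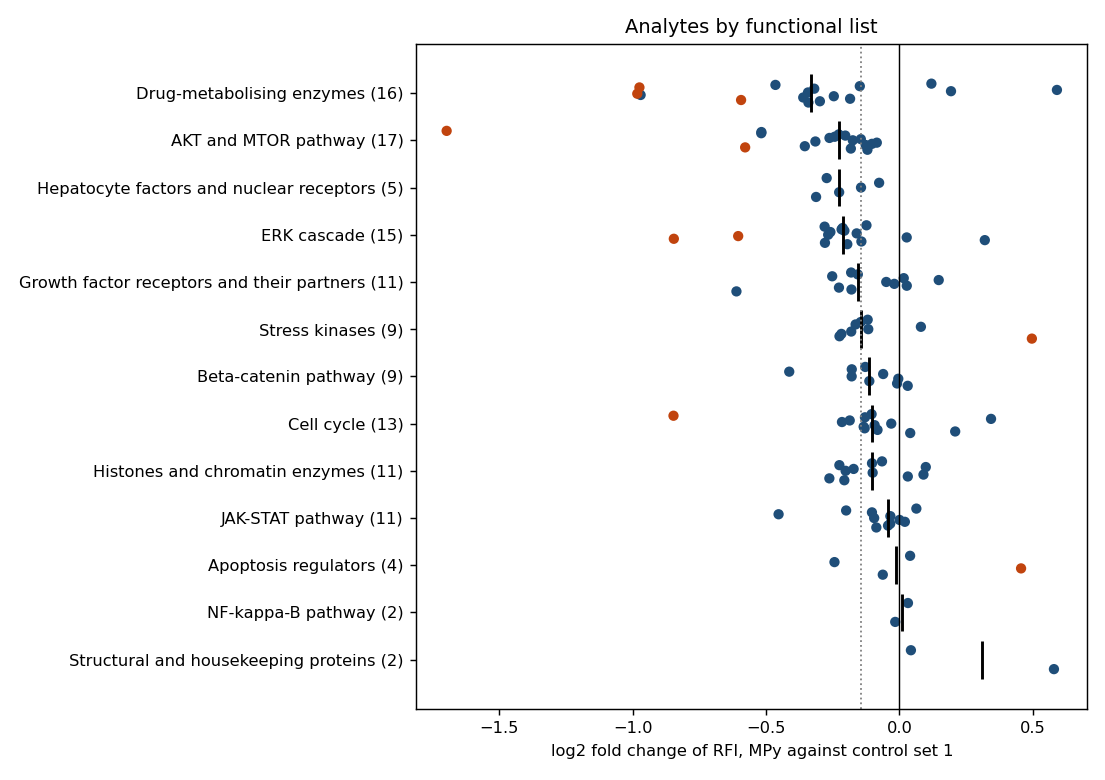
Log2 fold change of RFI, MPy against control set 1 (x axis), of the analytes in the functional lists shown, with the number of analytes in parentheses. Red points have an unadjusted limma p below 0.05, black bars are list medians and the dotted line is the median of all 158 analytes (-0.15). The enzyme list has the lowest median (-0.33), and BAX and JUN are the red points to the right of 0.

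The 3 MPy animals were not equally far from their controls. Animal 3 was below all 3 animals of set 1 in 109 analytes, against 59 for animal 1 and 70 for animal 2. Its median log2 difference from set 1 was -0.30, against -0.08 for each of the others. It was also the animal farthest from the group median in 69 analytes, against 33 and 55. Animal 3 had the highest BAX but the lowest JUN, ELK1 and phosphorylated RPS6 of the group. Leaving out 1 MPy animal at a time, the 7 calls against the 12 controls became 1 without animal 1 (CDKN1B_P-S10), 3 without animal 2 (BAX, ELK1 and CDKN1B_P-S10) and 1 without animal 3 (CYP3A4_2).

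An exact permutation test of the 3 MPy animals against the 12 controls (455 splits, two-sided, smallest p of 0.0022) gave that smallest p for CYP3A4_2, CYP2C8, ELK1, CASK and CDKN1B_P-S10. In the same exact permutation test p was 0.0044 for BAX, 0.0066 for MAPK3_P-T202/Y204 and 0.0088 for JUN. Adjusted over the 156 analytes with values in all 15 animals, the smallest was 0.0686, so 0 passed by this test, and 27 had an unadjusted exact permutation p below 0.05. These splits treat all 15 animals as exchangeable and ignore the control sets, which differ. Mean RFI of CYP3A4_2 was 1.28, 1.29, 1.03 and 2.15 in sets 1, 2, 5 and 6. An exact test of 3 against 3 cannot go below 0.1.

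Thioacetamide (TAA), another rat liver carcinogen, was given at 19.2 mg/kg/d, also for 7 days and with control group 1 in its label, so the contrast of both compounds matches duration and needs no control animal. The doses differ, and the study's methods list carboxymethyl cellulose as the vehicle of TAA and methylcellulose as that of MPy in one place, and carboxymethyl cellulose for both in another. limma called 0 of 158 analytes (0%), with 3 at an unadjusted p below 0.05 (1.90%), namely MKI67, HIST1H4A_A-K8 and GLUL, whose p rests on 1 usable TAA value and is no test, and 13 whose groups did not overlap (8.23%). GLUL read -0.747, 0.061 and -1.86 after TAA, so 2 of its 3 values were at or below 0 and no fold is given. All 3 MPy animals had a higher GLUL than all 3 TAA animals. MKI67 was 0.243, 0.323 and 0.318 after TAA, below the 3 MPy values, and differed by 0.53 on the log2 scale (95% interval 0.02 to 1.05, adjusted p = 0.999). Acetylated histone H4 (HIST1H4A_A-K8) read 0.593, 0.529 and 0.435 in MPy and 0.674, 0.685 and 0.571 in TAA, with overlap, at -0.32.

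Against TAA, BAX, CYP3A4_2, CYP2C8, CASK and CDKN1B_P-S10 overlapped, while PRKAA1, CYP1A1_2 and EIF2A did not. PRKAA1 was 0.338, 0.353 and 0.369 after TAA, above all 3 MPy values, with MPy minus TAA at -0.21 on the log2 scale (95% interval -0.67 to 0.24). CYP1A1_2 was 2.11, 2.01 and 1.81 after TAA, again above MPy, at -0.16 (-0.46 to 0.14). EIF2A was 1.21, 1.15 and 1.09, below MPy, at 0.24 (-0.16 to 0.65), and limma called none of these. BAX read 0.773, 0.965 and 0.875 after TAA, and MPy minus TAA was -0.09 (95% interval -0.42 to 0.25). CYP3A4_2 read 0.557, 0.460 and 0.644, with a difference of 0.25 (-0.40 to 0.89). CYP2C8 differed by 0.22 (-0.61 to 1.05), CASK by -0.10 (-0.48 to 0.28) and CDKN1B_P-S10 by 0.12 (-0.43 to 0.67). These intervals do not show that both compounds act alike. JUN was 0.221, 0.274 and 0.243 after TAA, where MPy animals 1 and 2 were higher and animal 3 lay within, and the difference was 0.45 (-0.02 to 0.92, adjusted p = 0.999). ELK1 was lower in MPy than in TAA by a log2 value of -0.46 (-1.10 to 0.18).

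The other 5 compounds referred to control set 1 share its 3 animals, and their doses and durations differ, so their values are given side by side only. The log2 fold change of BAX was 0.46 for MPy, 0.54 for TAA, 0.09 for acetamide (AA), 0.10 for methylcarbamate (Mcarb), -0.28 for dehydroepiandrosterone (DHEA) and -0.22 for Wy-14643 (Wy). For CYP3A4_2 it was -0.97 for MPy, -1.22 for TAA, 0.24 for AA, 0.06 for Mcarb, 1.08 for DHEA and -0.50 for Wy. CDKN1B_P-S10 was negative for all of them, at -0.85 for MPy, -0.97 for TAA, -0.75 for AA, -0.73 for Mcarb, -1.14 for DHEA and -1.13 for Wy. CYP2C8 was likewise at -0.98 for MPy, -1.20 for TAA, -0.74 for AA, -0.67 for Mcarb, -1.05 for DHEA and -1.16 for Wy. ELK1 ran from -0.33 (Mcarb) to -0.94 (DHEA), MAPK3_P-T202/Y204 from -0.20 (Mcarb) to -1.10 (DHEA), and RPS6_P-S235/S236 from -0.39 (Mcarb) to -2.87 (DHEA). Also negative for all 6 were PRKAA1, -0.33 (Mcarb) to -0.63 (DHEA), CASK, -0.03 (Mcarb) to -0.49 (MPy), and CDH2, -0.19 (Wy) to -0.62 (MPy). EIF2AK3 was negative for all 6 too, while CYP1A2_1 was positive for AA (0.04) and Mcarb (0.12). The same 3 control animals enter all 6 values of an analyte, and their part in these values was not tested.

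Across all 21 groups of the series, mean BAX RFI in MPy was 0.827 ± 0.155 (SD, n = 3) and ranked 18 from the lowest, next to TAA (0.871 ± 0.096) above and ethionine (ETH, 0.810 ± 0.058) below. These neighbours differed by less than their SDs. The highest BAX, 1.52 ± 0.178, was that of C.I. Direct Black (CIDB). CASK in MPy, 0.606 ± 0.027, was the lowest of the 21 means, but the next, dimethylnitrosamine (DMN) at 0.619 ± 0.113, was within the spread. CYP3A4_2 in MPy ranked 3 from the lowest at 0.655 ± 0.084, between TAA at 0.554 ± 0.092 and DMN at 0.677 ± 0.152. JUN in MPy ranked 19 at 0.339 ± 0.065.

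**Figure D5:**
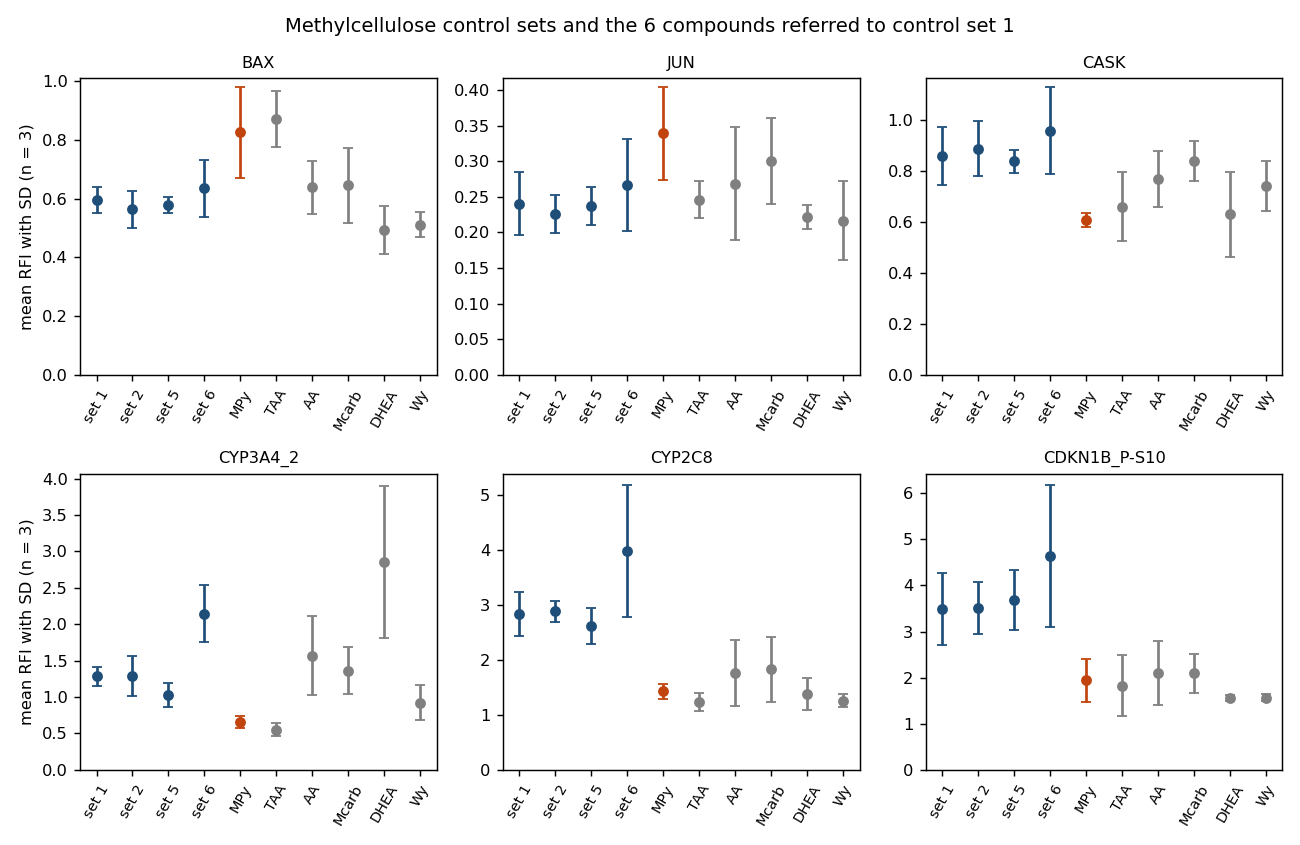
Mean RFI with SD (y axes, linear, n = 3 animals) of 6 analytes in the 4 methylcellulose control sets (blue), MPy (red) and the other 5 compounds referred to control set 1 (grey). BAX is higher and CYP3A4_2 lower in MPy and TAA than in each control set, CDKN1B_P-S10 and CYP2C8 are low in all 6 compounds, and CASK is lowest in MPy.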

How the data were processed

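Liver lysates, adjusted to equal protein concentration per the study's methods, were measured on ZeptoMARK reverse-phase protein arrays. The authors deposited RFI, a background-corrected and array-normalized intensity averaged over replicate spots, for 158 analytes per animal. They also deposited a series matrix of log2 ratios to the control median with imputed values, used here as an alternative. Since each control set is its own reference there, the matrix gives no second reference. Whether RFI was corrected for the secondary antibody signal is not stated with the values. Intensities at or below 0 were set to missing (2 of 948 in the 6 animals, both ACTB) and the rest log2 transformed without further scaling.

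limma 3.58.1 (R 4.3.3, lmFit and eBayes, two-sided) was fitted to 21 group means over 63 animals. It was tested on simulated data. Groups came from the labels. The members, lists and tests were chosen with earlier results of these data known. Named analytes were those called in any comparison, those with an unadjusted p below 0.05 against set 1, the 5 largest rises and falls without overlap there, GLUL, JUN, CDKN1B, CYP2C8 and all drug-metabolising enzymes. Members of the functional lists were counted, and their largest changes given as examples. MKI67, HIST1H4A_A-K8 and the further family members beside a named analyte were added after their values were seen. Alternatives were centring, shrinkage with a trend, fits of the compared animals alone, other handling of dim or non-positive values, the matrix, other control sets and leaving out animals. Some analytes are not reported here. 0 matrix columns lacked a sample. Arrays have no read depth, so the number of animals limits the precision. The limma p-values of the main fit measure the spread between animals of a group. The permutation p-values also take in differences between control sets.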

Additional observations from a re-analysis of the deposited data

How the results depend on the processing

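Against control set 1 the count of called analytes moved from 0 to 1 after centring (BAX), 1 in the series matrix (BAX), 3 in a fit of the 6 animals alone (CYP2C8, CYP3A4_2 and RPS6_P-S235/S236), 7 with all methylcellulose controls as reference, 1 with set 5 and 16 with set 6 as reference, the set with the animal that stood apart. It remained 0 with set 2 and when each animal was left out in turn, where 7 to 16 analytes had an unadjusted p below 0.05. Against the 12 controls the count of 7 became 11 without the dimmest analytes, 1 in the matrix, 3 with sets 1, 2 and 5 (BAX, CDKN1B_P-S10 and RPS6_P-S235/S236), and 1 to 5 when animals were left out. The cause was not tested, other than that fewer analytes or animals entered. References by set and the omission of the set 6 animal were chosen after seeing the data.

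MPy and TAA share replicate numbers 1 to 3. Deviations of same-numbered animals had correlations of 0.306, -0.118 and 0.546, and those of other pairs ran from -0.494 to 0.279. With so few animals these values cannot decide whether the numbers pair them, and the main fit treats them as unpaired. With a replicate block the count of called analytes moved from 0 to 2, GLUL, which rested on 1 TAA value, and ACTB. In the matrix it was 1 (AURKA). MPy animals 1 to 3 and set 1 animals 4 to 6 share no number. Among modified over total ratios the count became 1 with all methylcellulose controls (CDKN1B_P-S10, whose name is uncertain).

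Of 563 values of single analytes under alternatives, 494 kept direction and side of the threshold, 23 gained a call, 31 lost it and 15 turned direction. All 31 losses were among the 84 values of the 7 analytes called against the 12 controls, of which 52 kept the call and 1 turned. CDKN1B_P-S10, whose name is uncertain, turned to 0.63 (set 1) and 0.15 (12 controls) in the matrix. Matrix values are already ratios to a control group, the same group for MPy and set 1. RPS6_P-S235/S236 turned to 0.27 and CYP2E1_1 to -0.28 against set 6. Against set 2, GLUL turned to 0.40 and CYP1A2_2 to 0.051. CYP3A5 turned to 0.018 on centring and 0.11 in the matrix, and CDKN1B to 0.062 on centring. UGT1A1 turned to -0.13 against the 12 controls and to -0.041, -0.17 and -0.43 against sets 2, 5 and 6. With animals left out UGT1A1 ran from -0.075 to 0.39 and CDKN1B from -0.30 to 0.022.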
